A study of Mus musculus with 10 samples.

Results

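The 10 genes described here encode the ligands of the epidermal growth factor (EGF) family and their ErbB receptors. They were the rows of the deposited gene table whose symbol was Hbegf, Tgfa, Areg, Ereg, Epgn, Btc or Egf (7 ligands) or Egfr, Erbb2 or Erbb3 (3 receptors), 10 of 55421 genes in all. RNA was sequenced from surgical skin ulcers of db/db mice, which carry a leptin receptor mutation and become obese and diabetic. One group of 5 libraries came from ulcers treated with saline and Fu Huang ointment, a topical preparation, and the other 5 came from ulcers treated with saline alone. Treatment lasted 7 days, and both groups shared the db/db background and the excision wound. No unwounded skin, no non-diabetic mice and no group given an ointment base were analysed here, and the labels do not tell whether the 5 libraries of a group are 5 mice. The p-values therefore describe the spread among libraries, part of which may be technical.

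EGF family ligands are made as membrane-anchored precursors, and metalloproteases of the ADAM family cut them free to act on nearby cells. They bind the receptor tyrosine kinase Egfr, and some also bind Erbb4; Erbb2 has no known soluble ligand and serves as a partner, and Erbb3, a receptor for neuregulins, has little kinase activity of its own. In skin, keratinocytes both make and sense several of these ligands, and the pathway is known for its part in keratinocyte proliferation and migration during wound closure. Macrophages are another known source of Hbegf and Areg.

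Library totals ran from 47.8 to 62.9 M estimated counts (M, mega) with ointment and from 58.1 to 62.7 M with saline. Levels are given as CPM, counts scaled to library size by the TMM method, and comparisons used the edgeR quasi-likelihood test with Benjamini-Hochberg adjustment over all 18509 genes tested and a threshold of 0.05. The summed CPM of 12 macrophage markers was 7420 to 10384 in ointment libraries and 3458 to 6023 in saline libraries, without overlap. The count of markers that rose was 3 of 12. All 12 had positive fold changes, 8 had an unadjusted p under 0.05 and DESeq2 called 6. Summed CPM of 10 markers of differentiated keratinocytes was 1454 to 3372 with ointment and 4152 to 10396 with saline, again without overlap, and 2 of 9 tested fell. Of 10 hair follicle markers 7 fell, and their summed CPM was 42.2 to 59.1 with ointment and 51.9 to 723 with saline, the groups overlapping through saline 5. All 10 neutrophil markers had positive fold changes (median log2 fold change 1.82, against 0.81 for the macrophage markers), none passed by edgeR, 9 had an unadjusted p under 0.05 and DESeq2 called 7. Their summed CPM was 1689 to 7824 with ointment and 852 to 2729 with saline. Summed CPM of 9 basal keratinocyte markers overlapped, at 10827 to 19705 with ointment and 11204 to 19789 with saline, as did that of 9 wound-activated keratinocyte markers, at 9029 to 19300 with ointment and 7977 to 17006 with saline. Fibroblast markers summed to 18099 to 58878 with ointment and 35801 to 54461 with saline. Over all genes tested, edgeR called 0.692% higher and 0.983% lower with ointment, and 17.1% had an unadjusted p under 0.05. The groups did not overlap for 6.54% of single genes, and DESeq2 called 6.94% of the genes it tested. No marker of the 14 cell type lists was at 0 in every library. In such bulk tissue, fewer cells of a type and less RNA per cell cannot be told apart.

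All 10 members passed the low-count filter, and their estimated counts ran from 43 (Ereg in ointment 2) to 12159 (Egfr in saline 1). With ointment, 1 of the 10 members rose, the ligand Hbegf, and none fell by the edgeR test. The same rule called 1.67% of all genes tested, 0.692% higher and 0.983% lower with ointment, and an unadjusted p under 0.05 was reached by 2 of the 10 members and by 17.1% of all genes. Of the 7 ligands, 5 had positive fold changes, and all 3 receptors had negative ones, where 49.7% of all genes tested had a positive one. The DESeq2 Wald test also called Hbegf alone of the 10, and it called 6.94% of the genes it tested. The median log2 fold change of the 10 was -0.03, beside -0.0025 over all genes tested.

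**Figure D1:**
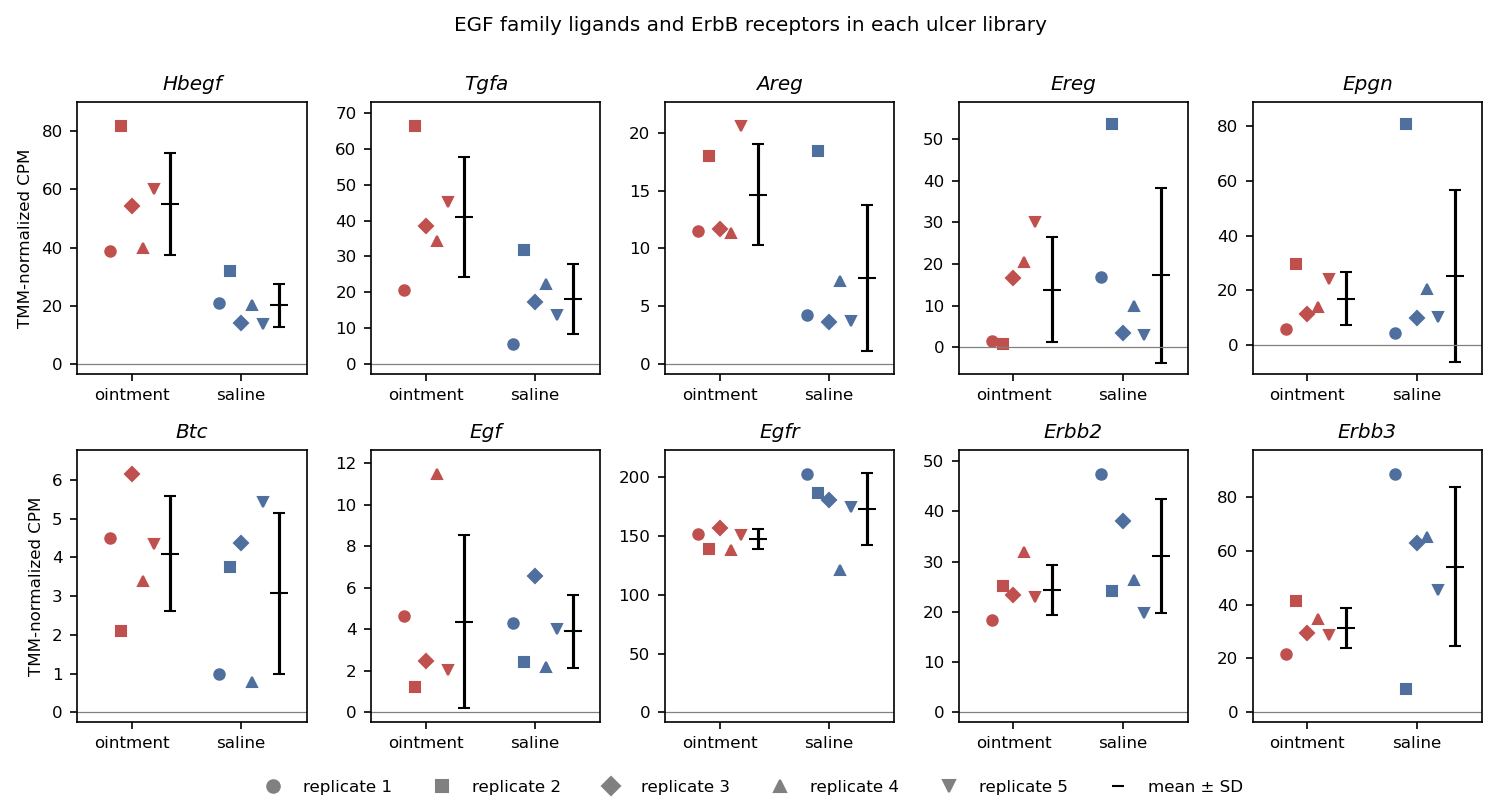
TMM-normalized CPM of the 7 ligands and 3 receptors in each library, with ointment left of saline, symbols for replicate numbers and black bars for the mean ± SD of 5 libraries. Hbegf lies at 38.7 to 81.6 CPM with ointment and at 13.7 to 31.9 CPM with saline, and the saline 2 square stands high for Areg, Ereg and Epgn and low for Erbb3.

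Hbegf, heparin-binding EGF-like growth factor, lies on chromosome 18 and binds Egfr and Erbb4. It was at 38.7, 81.6, 54.4, 40.0 and 60.0 CPM in ointment libraries 1 to 5, and at 21.04, 31.9, 14.1, 20.4 and 13.7 CPM in saline libraries 1 to 5. Every ointment library was above every saline library, with ointment 2 the highest of its group and saline 2 the highest of the other. Such absence of overlap held for 6.54% of all genes tested. The means were 54.9 ± 17.5 CPM with ointment and 20.2 ± 7.37 CPM with saline (SD, n = 5 each), a log2 fold change of 1.44 (SE 0.29, 95% confidence interval 0.81 to 2.08, adjusted p = 0.0379 by edgeR). The direction was the same with any library left out, with log2 fold changes of 1.26 to 1.68. The adjusted p nevertheless stayed under the threshold in 2 of those 10 refits, without ointment 4 (0.0398) and without saline 2 (0.0308), and was 0.0563 to 0.0904 without ointment 1, 2, 3 or 5 or saline 1, 3, 4 or 5. The macrophage and neutrophil markers given above were, like Hbegf, higher on average with ointment. Within the groups, both marker sums were highest in ointment 5 (10384 for macrophages, 7824 for neutrophils) and in saline 4 (6023 and 2729), while Hbegf was highest in ointment 2 and saline 2. The sum of wound-activated keratinocyte markers was highest in ointment 2 (19300) and, among saline libraries, in saline 5 (17006), where Hbegf was lowest of all. From high to low, the ointment libraries were ordered 2, 5, 3, 4, 1 for Hbegf and for the wound-activated markers. The order was 5, 2, 3, 1, 4 for the neutrophil markers and 5, 3, 2, 1, 4 for the macrophage markers. Saline libraries were ordered 2, 1, 4, 3, 5 for Hbegf and 5, 2, 4, 1, 3 for the wound-activated markers. For neutrophil and macrophage markers the saline orders were 4, 2, 3, 5, 1 and 4, 5, 2, 1, 3. The part of these cell types in the Hbegf difference was not tested.

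The 5 genes whose centred log2 CPM followed Hbegf most closely over the 10 libraries were Dennd4a, Lamb3, Klhl6, Fam83a and Lat2. Their mean absolute difference from it was 0.22, 0.25, 0.27, 0.27 and 0.28 on the log2 scale, where the median of 11872 candidate genes was 0.78. Because each gene was centred over both groups, the choice favoured genes with a group difference like that of Hbegf. Dennd4a (adjusted p = 0.146 by edgeR) and Fam83a (adjusted p = 0.0584) did not pass. Lamb3 encodes a chain of laminin-332 in the epidermal basement membrane and was at 172.8 CPM with ointment and 68.7 CPM with saline. Of the 9 basal keratinocyte markers, Lamb3 was the only 1 with a positive fold change (median log2 fold change of the 9, -0.31). Lat2, an adaptor protein gene of leukocytes, was at 47.1 CPM with ointment and 22.9 CPM with saline.

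Tgfa, transforming growth factor alpha, a keratinocyte ligand of Egfr on chromosome 6 (86195223 to 86275719, GRCm38), had the next largest fold change. It was at 20.7, 66.3, 38.6, 34.2 and 45.2 CPM in ointment libraries 1 to 5, and at 5.74, 31.8, 17.4, 22.4 and 13.8 CPM in saline libraries 1 to 5. In 4 of the 5 ointment libraries it was above every saline library, while ointment 1 lay below saline 2 and saline 4. The means were 41.0 ± 16.8 CPM with ointment and 18.2 ± 9.72 CPM with saline (SD, n = 5 each), a log2 fold change of 1.17 with a 95% confidence interval of 0.21 to 2.13. It did not pass edgeR's test over all genes (unadjusted p = 0.022, adjusted p = 0.2), nor with any library left out (adjusted p 0.144 to 0.359).

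Areg encodes amphiregulin, a ligand of Egfr that keratinocytes and several leukocytes are known to make. It was at 11.5, 18.01, 11.7, 11.4 and 20.6 CPM in ointment libraries 1 to 5, and at 4.28, 18.4, 3.67, 7.21 and 3.77 CPM in saline libraries 1 to 5. Saline 2 stood among the ointment values, and the other 4 saline libraries lay below all ointment libraries. With all 10 libraries the log2 fold change was 0.97 (SE 0.47, adjusted p = 0.331 by edgeR), from means of 14.6 ± 4.35 CPM with ointment and 7.46 ± 6.28 CPM with saline (SD, n = 5 each). Without saline 2 it was 1.64 with an adjusted p of 0.0453, so for Areg the call depended on that library. Over the 10 libraries Areg was the member whose centred log2 CPM lay closest to Hbegf, with a mean absolute difference of 0.31, and Tgfa lay at 0.43 from Hbegf.

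Areg, Ereg, Epgn and Btc lie within a stretch of chromosome 5. In GENCODE coordinates on GRCm38, Epgn spans 91027464 to 91035215, Ereg 91074622 to 91093646, Areg 91139599 to 91148432, and Btc, on the opposite strand, 91357261 to 91402994. RefSeq promoter windows (GRCm38.p6, 250 bases before to 50 after the transcript start, plus strand) are shown for Areg and Epgn, which like Ereg between them were high in saline 2, and for Tgfa, the ligand with the largest fold change after Hbegf. Windows were matched for 7 of the 10 members. Capitals mark matches, on either strand, to 4 motifs. The first, TATAAA, is the core of a box near many transcript starts. The next, the cyclic AMP response element, is TGACGTCA. The AP-1 motif was searched as TGANTCA. The GC box was searched as GGGCGG, and no 2 matches overlap.
Areg, chr5:91139349-91139648: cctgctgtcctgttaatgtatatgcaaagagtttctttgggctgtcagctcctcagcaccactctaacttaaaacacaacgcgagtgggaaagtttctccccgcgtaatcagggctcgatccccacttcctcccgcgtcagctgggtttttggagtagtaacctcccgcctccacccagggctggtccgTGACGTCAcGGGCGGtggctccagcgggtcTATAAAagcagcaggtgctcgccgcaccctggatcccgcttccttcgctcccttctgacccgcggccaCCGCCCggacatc
Epgn, chr5:91027267-91027566: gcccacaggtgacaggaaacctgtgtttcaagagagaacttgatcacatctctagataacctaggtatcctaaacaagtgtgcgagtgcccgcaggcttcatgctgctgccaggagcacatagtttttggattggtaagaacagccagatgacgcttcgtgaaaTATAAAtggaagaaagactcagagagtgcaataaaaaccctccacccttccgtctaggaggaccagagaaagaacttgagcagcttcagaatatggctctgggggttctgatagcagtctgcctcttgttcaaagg
Tgfa, chr6:86194972-86195271: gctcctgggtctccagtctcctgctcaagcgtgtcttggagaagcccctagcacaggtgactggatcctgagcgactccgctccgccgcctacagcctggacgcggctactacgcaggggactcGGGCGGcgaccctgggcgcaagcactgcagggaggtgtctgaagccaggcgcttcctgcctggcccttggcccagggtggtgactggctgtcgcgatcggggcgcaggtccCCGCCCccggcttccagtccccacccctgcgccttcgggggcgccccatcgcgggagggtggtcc
The Areg window holds a cyclic AMP response element 61 bases before its start, a GC box at 52 and a TATA box at 31, and a second GC box after the start. The Epgn window holds a TATA box 86 bases before the RefSeq start, which is 33 bases before the GENCODE start. The Tgfa window holds GC boxes at 126 and 15 bases and no match to the other 3 motifs. Among all 32851 promoter windows of this length, 13.6% hold the TATA box, 1.79% the cyclic AMP response element, 7.81% the AP-1 motif and 35.7% the GC box. These matches describe letters and not binding.

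Epgn (epigen) and Ereg (epiregulin), ligands of Egfr and in the case of epiregulin also of Erbb4, varied the most between saline libraries. Their SDs there were 125% and 121% of the mean. Between ointment libraries Egf varied the most (95.4%), then Ereg (91.0%), and Epgn was at 55.9%. Epgn was at 6.03, 29.4, 11.6, 14.1 and 24.1 CPM in ointment libraries 1 to 5, and at 4.56, 80.5, 10.03, 20.6 and 10.5 CPM in saline libraries 1 to 5. Ereg was at 1.47, 0.803, 16.6, 20.5 and 30.1 CPM in ointment libraries 1 to 5, and at 16.9, 53.5, 3.44, 9.92 and 3.01 CPM in saline libraries 1 to 5. The groups overlapped for both genes, with saline 2 the highest library of all and ointment 1 and 2 the lowest for Ereg. The log2 fold changes were -0.57 for Epgn (95% confidence interval -2.22 to 1.09, adjusted p = 0.781 by edgeR) and -0.32 for Ereg (-2.65 to 2.01, adjusted p = 0.926). Without saline 2 the signs turned, to 0.59 for Epgn and 0.75 for Ereg, and neither passed (adjusted p = 0.663 and 0.795). For Epgn the direction therefore rested on saline 2. For Ereg it also rested on saline 2. The log2 fold change of Ereg kept its sign but shrank to -0.03 without ointment 1 and to -0.02 without ointment 2.

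**Figure D2:**
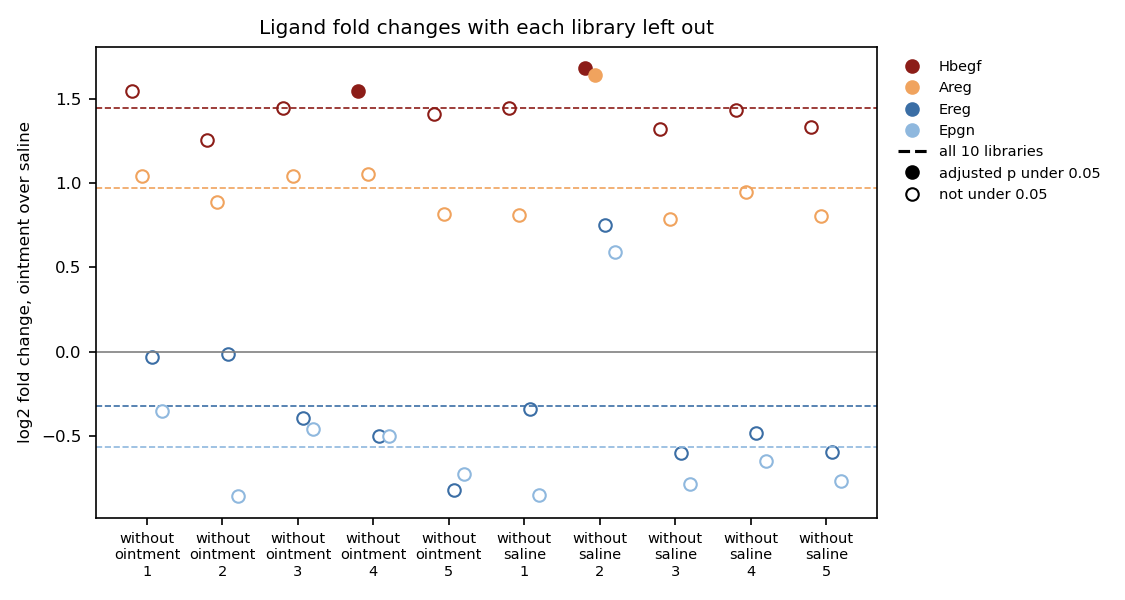
Log2 fold changes (ointment over saline) of Hbegf, Areg, Ereg and Epgn with each library left out in turn, filled where the adjusted p was under 0.05, with dashed lines for the fit to all 10 libraries. Hbegf stays between 1.26 and 1.68, and leaving out saline 2 moves Areg to 1.64, Ereg to 0.75 and Epgn to 0.59.

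Btc, betacellulin, a ligand of Egfr and Erbb4, and Egf itself were the lowest members. Btc was at 2.11 to 6.14 CPM with ointment (median 4.33) and at 0.775 to 5.44 CPM with saline (median 3.76), with a log2 fold change of 0.42 (SE 0.54, adjusted p = 0.778 by edgeR). Egf was at 1.23 to 11.5 CPM with ointment (median 2.48) and at 2.20 to 6.58 CPM with saline (median 4.01). Its highest value was in ointment 4, without which the log2 fold change turned to -0.58, against 0.16 with all libraries (adjusted p = 0.568 and 0.935 by edgeR). The groups overlapped for both genes. Genes annotated on the opposite strand overlap Egf, and none of them exceeded 34 estimated counts in a library.

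**Figure D3:**
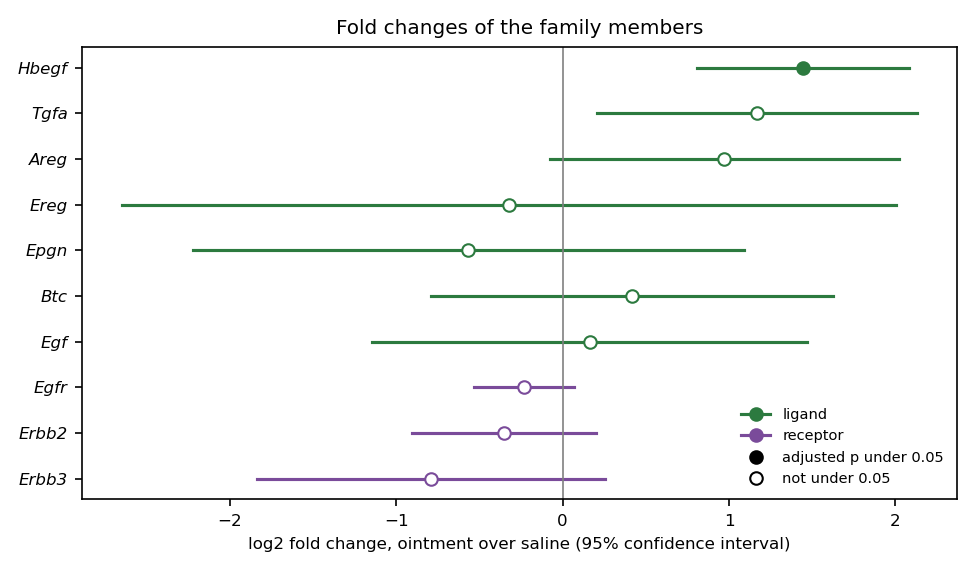
Log2 fold changes (ointment over saline) with 95% confidence intervals for the 10 members, ligands above receptors, filled where the edgeR adjusted p was under 0.05. Hbegf at 1.44 is the filled point, the interval of Tgfa (0.21 to 2.13) also lies above 0, and the 3 receptors lie between -0.79 and -0.23.

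Egfr, the shared receptor of the 7 ligands, lies on chromosome 11 (16752203 to 16918158) and was at 152, 139, 157, 138 and 151 CPM in ointment libraries 1 to 5, and at 202, 186, 180, 121 and 174 CPM in saline libraries 1 to 5. Values were below 4 of the 5 saline libraries in every ointment library, and saline 4 was the lowest of all. The means were 147.3 ± 8.5 CPM with ointment and 172.8 ± 30.9 CPM with saline (SD, n = 5 each), and the log2 fold change of -0.23 (95% confidence interval -0.53 to 0.07) did not pass (adjusted p = 0.438 by edgeR). Without saline 4 it was -0.35 (adjusted p = 0.127). Genes with a closely similar centred log2 CPM over the 10 libraries were Nckap1, Rab3gap1, Ncor1 and Bcorl1, at mean absolute differences of 0.076 to 0.097, where the median candidate was at 0.33.

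Erbb3 (chromosome 10, 128567523 to 128589652) was at 21.8, 41.4, 29.5, 34.7 and 28.7 CPM in ointment libraries 1 to 5, and at 88.4, 8.79, 62.9, 64.9 and 45.2 CPM in saline libraries 1 to 5. Saline 2 was the lowest library of all, and the other 4 saline libraries were above every ointment library. The log2 fold change was -0.79 (SE 0.47, adjusted p = 0.443 by edgeR), and -1.05 without saline 2 (adjusted p = 0.0727). Erbb2 (chromosome 11, 98412470 to 98437716) was at 18.5 to 32.0 CPM with ointment (median 23.3) and at 19.7 to 47.4 CPM with saline (median 26.4), with a log2 fold change of -0.35 (SE 0.25, adjusted p = 0.539). Saline 1 held the highest value of all 3 receptors, and its summed CPM of differentiated keratinocyte markers, 10396, was also the highest of the 10 libraries. Summed markers of the hair follicle were likewise highest in saline 1 (723), with 51.9 to 380 in the other saline libraries. Below saline 1 the orders agreed only in part. Saline 4 was next for Erbb3 but had the lowest differentiated keratinocyte sum of the saline group (4152). Saline 2 was next in the hair follicle sum (380) and for Egfr, but lowest for Erbb3. Saline 3 was next for Erbb2 and in the differentiated keratinocyte sum (8065). The part of these markers in the receptor values was not tested. Erbb4, the remaining receptor, had 30 estimated counts in all libraries together and was not tested.

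Levels were compared between genes as TPM, the estimated counts per kilobase of annotated exon scaled to the same total in every library. With ointment, Egfr came first (37.1 ± 2.81 TPM), then Areg (33.8 ± 7.81), Hbegf (32.0 ± 9.09), Epgn (26.3 ± 13.8), Tgfa (17.8 ± 6.80), Erbb3 (14.8 ± 3.61), Erbb2 (13.4 ± 3.36), Ereg (9.38 ± 8.26), Btc (2.58 ± 0.918) and Egf (1.16 ± 1.18; TPM, SD, n = 5). With saline, the order was Egfr (45.9 ± 8.61 TPM), Epgn (41.9 ± 52.1), Erbb3 (27.2 ± 15.4), Areg (18.5 ± 15.5), Erbb2 (18.1 ± 7.03), Ereg (12.7 ± 15.2), Hbegf (12.6 ± 4.66), Tgfa (8.42 ± 4.49), Btc (2.02 ± 1.34) and Egf (1.04 ± 0.466; TPM, SD, n = 5). Neighbours in these orders differed by less than the sum of their SDs, except Tgfa and Btc in the saline group. Hbegf ranked 3 of the 10 with ointment and 7 with saline. These ranks are of means: Ereg, placed just above Hbegf with saline, was higher than Hbegf in 1 of the 5 saline libraries.

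As a share of the summed TPM of the 7 ligands, Hbegf, Tgfa and Areg together made up 61.2% to 80.2% in the ointment libraries and 31.3% to 54.8% in the saline libraries. Ereg and Epgn together made up 14.3% to 35.5% with ointment and 38.6% to 67.5% with saline. Neither share overlapped between the groups, with or without saline 2. Only Btc and Egf lie outside these 2 shares, so they nearly complement each other and are not separate observations. A share can be lower without a lower level: without saline 2 the log2 fold changes of Ereg (0.75) and Epgn (0.59) were positive, though neither passed, and the share also moves with the levels of Hbegf, Tgfa and Areg. Epgn was the most abundant ligand per length in saline 2, 3, 4 and 5 and Hbegf in saline 1, whereas Areg led in ointment 1, 4 and 5 and Hbegf in ointment 2 and 3. These sums were formed after the fold changes had been seen. They join the 3 ligands with the largest positive fold changes and the 2 with negative ones, a choice that favours separation. They are given without a test.

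**Figure D4:**
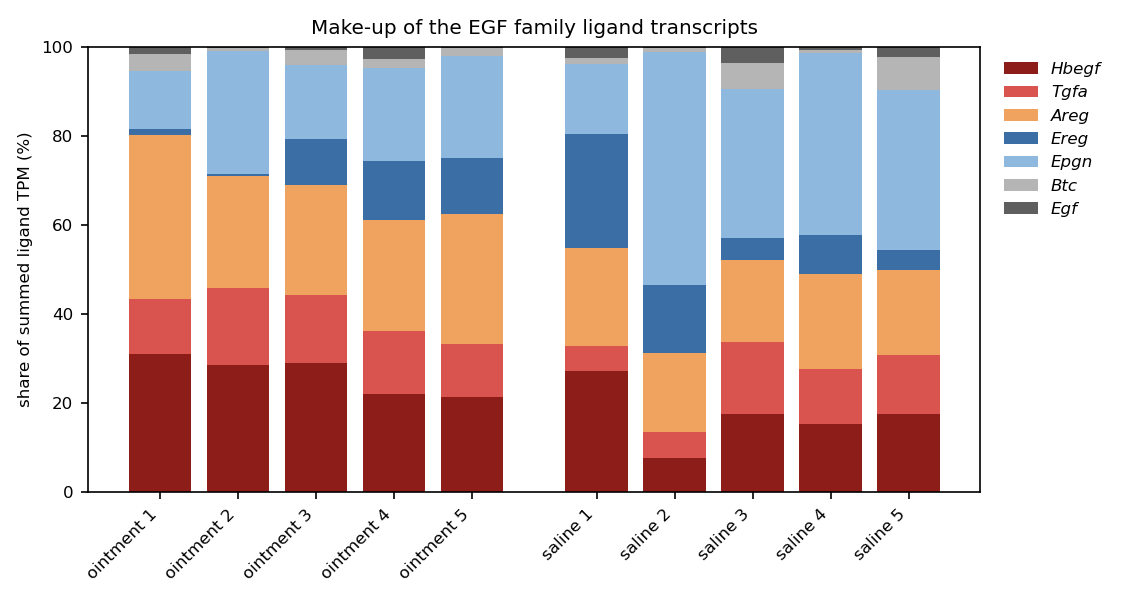
Share of the summed ligand TPM held by each of the 7 ligands (percent, stacked to 100) in each library, ointment bars left of saline bars. Hbegf, Tgfa and Areg (red to orange) fill 61.2% to 80.2% of the ointment bars and 31.3% to 54.8% of the saline bars.

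Genes around the receptors were read from 5 lists of 95 genes, of which 92 were tested, 1 rose and none fell. That share, 1.09%, was near the 1.67% called among all genes. Of the 92, 21 had an unadjusted p under 0.05 and DESeq2 called 8, where 17.1% and 6.94% of all genes did so. The groups did not overlap for 5 of the 92, beside 6.54% of all genes tested. The gene that rose was Klf6, a zinc finger transcription factor gene of the list of transcripts known to rise after EGF receptor activation. It was at 271, 310, 270, 241 and 327 CPM in ointment libraries 1 to 5, and at 180, 192, 176, 189 and 208 CPM in saline libraries 1 to 5, without overlap. Its log2 fold change was 0.59 (SE 0.11, adjusted p = 0.03 by edgeR), and when libraries were dropped one by one it passed in 2 of 10 fits, without ointment 4 or saline 5 (adjusted p up to 0.071 in the others). The other 24 tested genes of that list did not pass. Of the 25, 17 had positive fold changes (median 0.29), where 49.7% of all genes tested did. Among the genes that did not pass, the urokinase gene Plau was at 0.52 on the log2 scale (adjusted p = 0.0966 by edgeR). The immediate early gene Egr1 was at -0.70 (adjusted p = 0.218), with 53.9 to 100.9 CPM with ointment and 55.1 to 150.9 CPM with saline. Egr2 was the other gene of the list whose groups did not overlap, and it was lower with ointment (log2 fold change -1.25). It was at 0.897 to 18.4 CPM with ointment and 21.2 to 28.5 CPM with saline (unadjusted p = 0.0478, adjusted p = 0.285 by edgeR).

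None of the 12 sheddase and trafficking genes passed by edgeR, 3 had an unadjusted p under 0.05 and DESeq2 called 1 of them higher (median log2 fold change 0.09). Over all genes, 17.1% had an unadjusted p under 0.05 by edgeR and DESeq2 called 6.94%. Adam8, a metalloprotease gene of leukocytes, was at 143 to 671 CPM with ointment and 48.8 to 149 CPM with saline, the groups overlapping through ointment 4 (1.67 on the log2 scale, adjusted p = 0.0876 by edgeR). Adam9 was at 0.46 (adjusted p = 0.128) and Adam19 at 0.53 (adjusted p = 0.284). Of 25 genes of feedback inhibition and receptor turnover, none passed by edgeR, 4 had an unadjusted p under 0.05 and DESeq2 called 3 (median 0.13). Spred3, an inhibitor of the Ras-MAP kinase pathway, was at 0.71 (adjusted p = 0.0683), the receptor phosphatase gene Ptprk at -0.40 (0.0946) and the cytokine-signalling inhibitor Socs3 at 1.85 (0.134).

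None of 27 adaptor and kinase genes passed by edgeR, 8 had an unadjusted p under 0.05 and DESeq2 called 1 (median log2 fold change 0.05). The shares over all genes were 17.1% at an unadjusted p under 0.05 and 6.94% called by DESeq2. Grb2, the adaptor that links active receptors to Ras, was at 104 to 142 CPM with ointment and 79.5 to 99.3 CPM with saline. The Grb2 groups did not overlap, yet the log2 fold change of 0.49 missed the threshold (adjusted p = 0.0578 by edgeR). Eps8, an EGF receptor substrate gene, was at 0.63 (adjusted p = 0.153) and the GTPase gene Hras at -0.38 (adjusted p = 0.153). Of the neuregulin genes, whose products bind Erbb3 and Erbb4, 3 were tested, 2 had an unadjusted p under 0.05, none passed by edgeR and DESeq2 called 1. Nrg1 was at 3.66 to 16.7 CPM with ointment and 2.71 to 5.10 CPM with saline (log2 fold change 1.07, adjusted p = 0.2). Nrg2 was at 0.0757 to 0.575 CPM with ointment and 0.843 to 1.74 CPM with saline, without overlap (-1.44, adjusted p = 0.157), and Nrg4 was at -0.12 (adjusted p = 0.936).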

How the data were processed

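The values were estimated counts per gene, which the authors deposited as whole numbers without normalization in a single table. Low values pile up on multiples of 4 (among genes with 1 transcript, 4 occurred 6129 times, 3 occurred 3025 times and 5 occurred 3847 times), so they were not read as single reads, and the test fixed for counts was kept. The labels' protocols name a SMARTer mRNA library kit, and the submitters' processing notes name the build GRCm38, or mm10. The aligner and counter are not given in these sources, nor are the annotation release and the strand setting, so antisense and overlapping genes cannot be told apart from a member. An abundant gene can be listed at 0 in some libraries: 222 of the 10572 genes that reach 1000 in a library are at 0 in another, but no member is. The related lists do hold such values: Junb was at 0 in ointment 3 and at 178 to 669 CPM in the other ointment libraries. Medians and sign counts of those lists carry this limit. A check for 0 does not find losses that stop short of 0. Ereg was at 69 and 43 estimated counts in ointment 1 and 2 and at 1003 to 1590 in ointment 3 to 5. Whether that is such a loss was not tested.

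Groups were compared with edgeR 4.0.16 (R 4.3.3), a quasi-likelihood fit with robust dispersion, TMM normalization, group as the only term and filterByExpr (minimum count 10, minimum total 15). P-values are two-sided and adjusted over 18509 genes. CPM and TPM were computed here, TPM with exon lengths of GENCODE mouse release M21 (55154 of 55421 IDs matched). Alternatives were other scalings, filters and tests (DESeq2 1.42.0, limma 3.58.1), values divided by 4, the replicate number as a block, and left-out libraries. Same-numbered libraries did not deviate together (correlations -0.077 to 0.056 over 5 pairs). The members, lists and alternatives were chosen with earlier results of these data known. Named genes were all members, per related list the genes past the threshold and otherwise the 3 with the smallest p, and for Hbegf and Egfr the 5 genes of at least 5 CPM on average with the smallest mean absolute difference of centred log2 CPM (prior count 2), of which 1 is not reported here. Egr2, Junb and Ier2 were named in addition, Egr2 for its absence of overlap and the others for values of 0. Promoter sequences are from RefSeq. Intervals cover the spread between libraries; one library's CPM also carries counting error.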

Additional observations from a re-analysis of the deposited data

Results flagged for a closer look

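Areg, Ereg and Epgn were each far higher in saline 2 than in the other 4 saline libraries, by a gap test within groups of 5. Areg was at 18.4 CPM there and at 3.67 to 7.21 CPM in the other saline libraries. Ereg was at 53.5 CPM there and at 3.01 to 16.9 CPM in the others. Epgn was at 80.5 CPM there and at 4.56 to 20.6 CPM in the others. In all, 20 groups of 5 were examined on the CPM scale, and chance alone flags about 1 in 20 if values are normally distributed. Whether CPM values are so distributed was not tested, and no result on the log2 scale is given. All 3 flags fell on saline 2, so they do not count as 3 independent events against that rate.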

How the results depend on the processing

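Over all genes, edgeR called 310; the count was 1500 with the DESeq2 Wald test, 59 with 4 libraries per group (without saline 1 and ointment 5), and 102 to 422 with 1 library left out. The replicate numbers share only a label: with the replicate block, edgeR called 0 of 18509 genes (2602 at an unadjusted p under 0.05), 0 family members (3 unadjusted) and 0 related genes (17 unadjusted), and Hbegf was at 1.46 on the log2 scale (adjusted p = 0.145). With 4 libraries per group, 0 members (2 unadjusted) and 0 related genes (15 unadjusted) were called, and Hbegf was at 1.42 (adjusted p = 0.165). With 1 library left out, 0 to 2 members and 0 to 3 related genes were called. Related genes called were 2 with a filter at a mean of 5 CPM, 2 with limma voom, 2 with values divided by 4 and 8 with DESeq2. Hbegf was called in 9 of its 11 other alternatives, all but these 2. Signs turned for Ereg (0.018 with the replicate block; with 1 library left out -0.82 to 0.75, positive without saline 2), Epgn (-0.86 to 0.59, positive without saline 2) and Egf (-0.17 with limma voom, -0.27 with the replicate block; -0.58 to 0.42 with 1 library left out, negative without ointment 4), none of which passed. The cause was not tested, except that fewer libraries leave fewer degrees of freedom. Btc and Egf fell under the 5 CPM filter.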

Other observations

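Per length, the summed TPM of the 7 ligands was 77.8 to 164.6 with ointment and 46.9 to 255.0 with saline, where saline 2 held the highest sum and the other 4 saline libraries lay at 84.4 or below. Set against Egfr, that sum was 1.92 to 4.80 times the Egfr TPM with ointment and 0.894 to 5.18 times with saline. Saline 2, with the highest Areg, Ereg and Epgn and the lowest Erbb3 of its group, was not extreme among saline libraries in summed CPM of basal keratinocyte markers (14746), differentiated keratinocyte markers (5154) or macrophage markers (4291). It was the highest saline library in summed markers of fibroblasts (54461), endothelium (899.5) and T cells (34.05) and the lowest in those of skeletal muscle (1168). The part of these markers in its ligand values was not tested.

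Ier2, an immediate early gene of the lists above, was listed at 0 in 3 ointment and 3 saline libraries and at 2302 and 4833 estimated counts in ointment 4 and 5, against 2801 and 4378 in saline 1 and 5. It did not pass the low-count filter and no fold change is given.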
